A study of Mus with 2 samples.

Results

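Fc receptors are the cell-surface proteins that bind the constant part of antibodies and turn antibody recognition into a cellular response. Of the 32285 genes in the deposited files, 8 were taken by their symbols: Fcgr1, Fcgr3 and Fcgr4 (activating IgG receptors), Fcer1g (the shared signalling chain), Fcgr2b (the inhibitory IgG receptor), Fcer1a and Fcer2a (IgE receptors) and Fcmr (the IgM receptor). The rule uses symbols and no measured values, although the members were chosen with earlier results of these data known. All 8 were detected in both libraries.

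Activating IgG receptors and the high-affinity IgE receptor have no signalling tail of their own. They assemble with the protein of Fcer1g, the Fc gamma chain, which carries an activation motif that recruits the kinase encoded by Syk. Fcgr2b carries an inhibitory motif in its own tail, which recruits the phosphatase encoded by Inpp5d and dampens both activating receptors and the B-cell receptor. Fcer2a, a lectin-type low-affinity IgE receptor, and Fcmr are best known from B cells. In bone marrow, the cells that carry the activating receptors are themselves being made, so a receptor's transcript can be followed from progenitors to released cells.

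Hindlimb bone marrow of mice from a group named ground and a group named running was profiled cell by cell in droplets, and each group gave 1 library. Transcripts were captured at their 3′ ends and counted as molecules by unique molecular identifiers (UMIs), so levels need no correction for gene length, although capture can differ between genes. The labels name no strain, age, number of mice, pooling, running device or duration, and no agent beyond the group name. With a single library on each side no test was possible: the 95% intervals given are exact and cover counting error only, and a difference between the groups cannot be told apart from a difference in handling.

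The files held 9162 ground barcodes with 85014860 UMIs and 9473 running barcodes with 79990530 UMIs. After filtering, 8666 and 9080 cells remained, with medians of 5938 and 5145.5 UMIs. The libraries shared 24 barcodes. Joint clustering without the 8 genes gave 33 clusters, and 16 classes with at least 50 cells in each library were compared, 15 of them named with the ending "like" from marker genes of 22 cell types. They covered marrow stem and progenitor cells, the neutrophil, monocyte, erythroid and B lineages, dendritic, basophil or mast, T and NK cells. Cluster 20 (118 ground and 348 running cells), led by the interferon-response genes Ifit1, Ifit3 and Isg15, met no type and was given no name. It held S100a8, a neutrophil gene, at 129753 and 123309 CPM (UMIs per 1000000 UMIs of a class or cluster).

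Some classes need a caution before their values are read. Among mature neutrophil-like cells (2400 ground, 2599 running), clusters 9 and 8 held most of the ground cells (48.8% and 27.6%) and clusters 19 and 21 most of the running cells (40.5% and 32.5%). Only cluster 3 was well filled in both (433 and 591 cells), with Ptgs2, Fgl2 and Il1b among its leading genes. At the finer clustering resolution of 2, clusters with these leading genes were split by library. One held 581 ground and 19 running cells, and another 67 and 631. One small B cell-like cluster (cluster 32, 7 ground and 37 running cells) also carried S100a8 at 55518 and 73327 CPM. The macrophage-like class was read at medians of only 823 and 979 UMIs per cell and carried S100a8 at 38272 and 68938 CPM. Cluster 4 of the granulocyte-monocyte progenitor-like class was led by the monocyte gene F13a1 beside Prtn3 and Mpo. The basophil or mast cell-like class held 39 ground cells but 0 running cells under 1000 UMIs, which lowers shares of cells in ground.

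In the RefSeq annotation of GRCm38.p6, the assembly behind mm10, all 8 genes were matched by symbol and 6 lie on chromosome 1. A group of 4 lies in 1 block of 273.8 kb that holds 42 annotated genes: Fcgr2b (170960558-170976071), Fcgr4 (171018926-171029761), Fcgr3 (171051169-171065915) and Fcer1g (171229572-171234349). Fcer1a (173221269-173227232) and Fcmr (130865777-130880790) lie elsewhere on chromosome 1. Fcgr1 is at 96282909-96293969 on chromosome 3 and Fcer2a at 3680280-3694174 on chromosome 8. Each member's values are sums over the whole gene. Fcer2a overlaps Trappc5, the only such neighbour among the genes in the files, and the sources used here do not say whether strand was used in counting.

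Fcgr3, the low-affinity activating IgG receptor, was the most widely read of the receptors that bind IgG. All ground cells together held 12915 of its UMIs and all running cells 11632, and at least 1 UMI was found in 56.7% and 55.6% of cells. Its level was highest in mature neutrophil-like cells, at 428 CPM (416 to 441) in ground and 459 CPM (446 to 473) in running, and in cluster 20, at 443 and 440 CPM. These 2 groups of cells did not differ beyond their intervals, and the next class was lower by 1.59-fold in mean level. That class was basophil or mast cell-like cells, at 281 and 275 CPM, followed by macrophage-like cells at 245 and 246 CPM, nonclassical monocyte-like cells at 243 and 197 CPM, and monocyte-like cells at 215 and 195 CPM. Intervals of neighbouring classes in this run overlapped. NK cell-like cells, for which Fcgr3 is the classical IgG receptor of antibody-dependent killing, had 13 UMIs in 56 ground cells and 40 UMIs in 76 running cells.

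Fcgr4, an activating receptor of rodents for some IgG subclasses, was concentrated in nonclassical monocyte-like cells, the patrolling monocytes marked here by Ace, Adgre4 and Ear2. It was read there at 757 CPM (660 to 865) in ground and 542 CPM (465 to 628) in running, and a UMI was found in 90.6% of 64 and 83.6% of 61 cells. After thinning every cell to 1000 UMIs the shares were 50% and 44.3%. The next level, in cluster 20, was 139 and 131 CPM, so the class stood 4.82-fold above it in mean level with intervals apart. Mature neutrophil-like cells held 41.4% of Fcgr4 UMIs of ground and 41.3% of those of running, at 116 and 101 CPM. Monocyte-like cells, which share the lineage of the nonclassical class, were far lower at 18.7 and 10.2 CPM.

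Fcgr1, the high-affinity IgG receptor, reached 50 UMIs over both libraries in 4 classes: conventional dendritic cell-like, macrophage-like, monocyte-like and granulocyte-monocyte progenitor-like cells. Conventional dendritic cell-like cells had 98.9 CPM in ground and 154 CPM in running, macrophage-like cells 131 and 96.1 CPM (15 and 52 UMIs), and monocyte-like cells 85.0 and 62.1 CPM. Within ground the intervals of these 3 classes overlapped, and within running they did not, at 134 to 176, 71.8 to 126 and 56.8 to 67.8 CPM in the same order. Monocyte-like cells supplied 66.3% of the Fcgr1 UMIs of ground and 55.1% of those of running. The neutrophil classes were close to empty: mature neutrophil-like cells had 8 and 7 UMIs, or 0.779 and 0.737 CPM. NK cell-like cells had 0 UMIs in both libraries, where 3 UMIs, the number a count of 0 allows, equal 10.2 and 6.39 CPM.

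Fcer1g, the shared chain, was read at a higher CPM than any receptor in every class except the B cell-like class, where Fcmr and Fcer2a exceeded it and Fcgr2b did so in ground. Nonclassical monocyte-like cells had the highest level, 3042 and 2716 CPM. In both libraries 7 further groups lay between 1604 and 2008 CPM. They were conventional dendritic cell-like, mature neutrophil-like, monocyte-like, macrophage-like, basophil or mast cell-like and NK cell-like cells and cluster 20. Immature neutrophil-like cells had 1278 and 1238 CPM, plasmacytoid dendritic cell-like cells 736 and 866 CPM, and T cell-like cells 229 and 283 CPM.

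The chain and its receptors were not read in fixed proportion. Per UMI of a partner receptor (Fcgr1, Fcgr3, Fcgr4 or Fcer1a), Fcer1g had 1.13 and 1.19 UMIs in basophil or mast cell-like cells, 3.66 and 3.36 in mature neutrophil-like cells, and 5.88 and 6.84 in monocyte-like cells. NK cell-like cells had 35.5 and 18.4, from 14 and 41 partner UMIs. Plasmacytoid dendritic cell-like cells, which read almost none of these receptors, had 59.4 and 32.0.

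Low values of Fcer1g differed between the libraries in the same direction as S100a8 in B cell-like and erythroid-like cells, but not in every class. In stem and multipotent progenitor-like cells Fcer1g was 159 and 203 CPM, while S100a8 was 7252 and 4770 CPM. B-cell precursor-like cells had Fcer1g at 65.3 and 65.2 CPM and S100a8 at 4498 and 4214 CPM. B cell-like cells had 56.0 and 133 CPM of Fcer1g and erythroid-like cells 66.5 and 47.9 CPM. In these classes S100a8 stood at 69.5 and 75.2 UMIs per Fcer1g UMI (B cell-like) and at 74.4 and 80.9 (erythroid-like), against 66.4 and 70.1 in mature neutrophil-like cells. T cell-like cells had 11.7 and 11.2, and NK cell-like cells 0.966 and 3.12, so their Fcer1g came with far fewer neutrophil UMIs. The part of neutrophil transcripts in these low values was not tested. Median depths were 3190 and 3498 UMIs in B cell-like cells and 4800 and 5472 in NK cell-like cells. For comparison with other classes, a UMI of Fcgr3 was found in 3.34% and 6.20% of B cell-like cells, 3.51% and 4.77% of B-cell precursor-like cells and 11.1% and 9.67% of erythroid-like cells.

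Fcgr2b, the inhibitory receptor, followed another order. It was highest in conventional dendritic cell-like cells, at 204 CPM (180 to 229) in ground and 194 CPM (172 to 219) in running, with a UMI in 66.2% and 69.5% of cells. Nonclassical monocyte-like cells had 194 and 86.2 CPM, monocyte-like cells 89.8 and 74.1 CPM, basophil or mast cell-like cells 92.1 and 69.6 CPM, and B cell-like cells 72.1 and 80.6 CPM. The last 3 of these did not differ beyond their intervals. Mature neutrophil-like cells had only 12.3 and 13.4 CPM, although they had the highest Fcgr3. T cell-like cells (2 and 9 UMIs) and erythroid-like cells (28 and 28 UMIs) were lowest by the mean of both libraries, at 1.88 and 4.85 CPM and at 2.48 and 2.24 CPM, and their intervals overlapped that of NK cell-like cells (4.26 CPM from 2 UMIs) in running.

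The remaining members were each tied to 1 lineage. Fcer1a, the IgE-binding subunit of the high-affinity IgE receptor, had 97.1% of its ground UMIs and 95.7% of its running UMIs in basophil or mast cell-like cells, at 1166 and 1126 CPM. This was 376-fold above the mean level of the next class, stem and multipotent progenitor-like cells. That class had only 11 UMIs and intervals reaching 10.4 CPM, so the fold is imprecise. Fcer2a had 93.4% and 92.7% of its UMIs in B cell-like cells, at 301 and 283 CPM. The next class by mean level, macrophage-like cells, was 55.2-fold lower but had only 2 UMIs and intervals reaching 48.7 CPM, so this fold is imprecise too. Fcmr had 88.4% and 87.5% of its UMIs in B cell-like cells, at 736 and 674 CPM. This was 22.1-fold above B-cell precursor-like cells, which came second at 39.3 and 24.4 CPM.

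**Figure D1:**
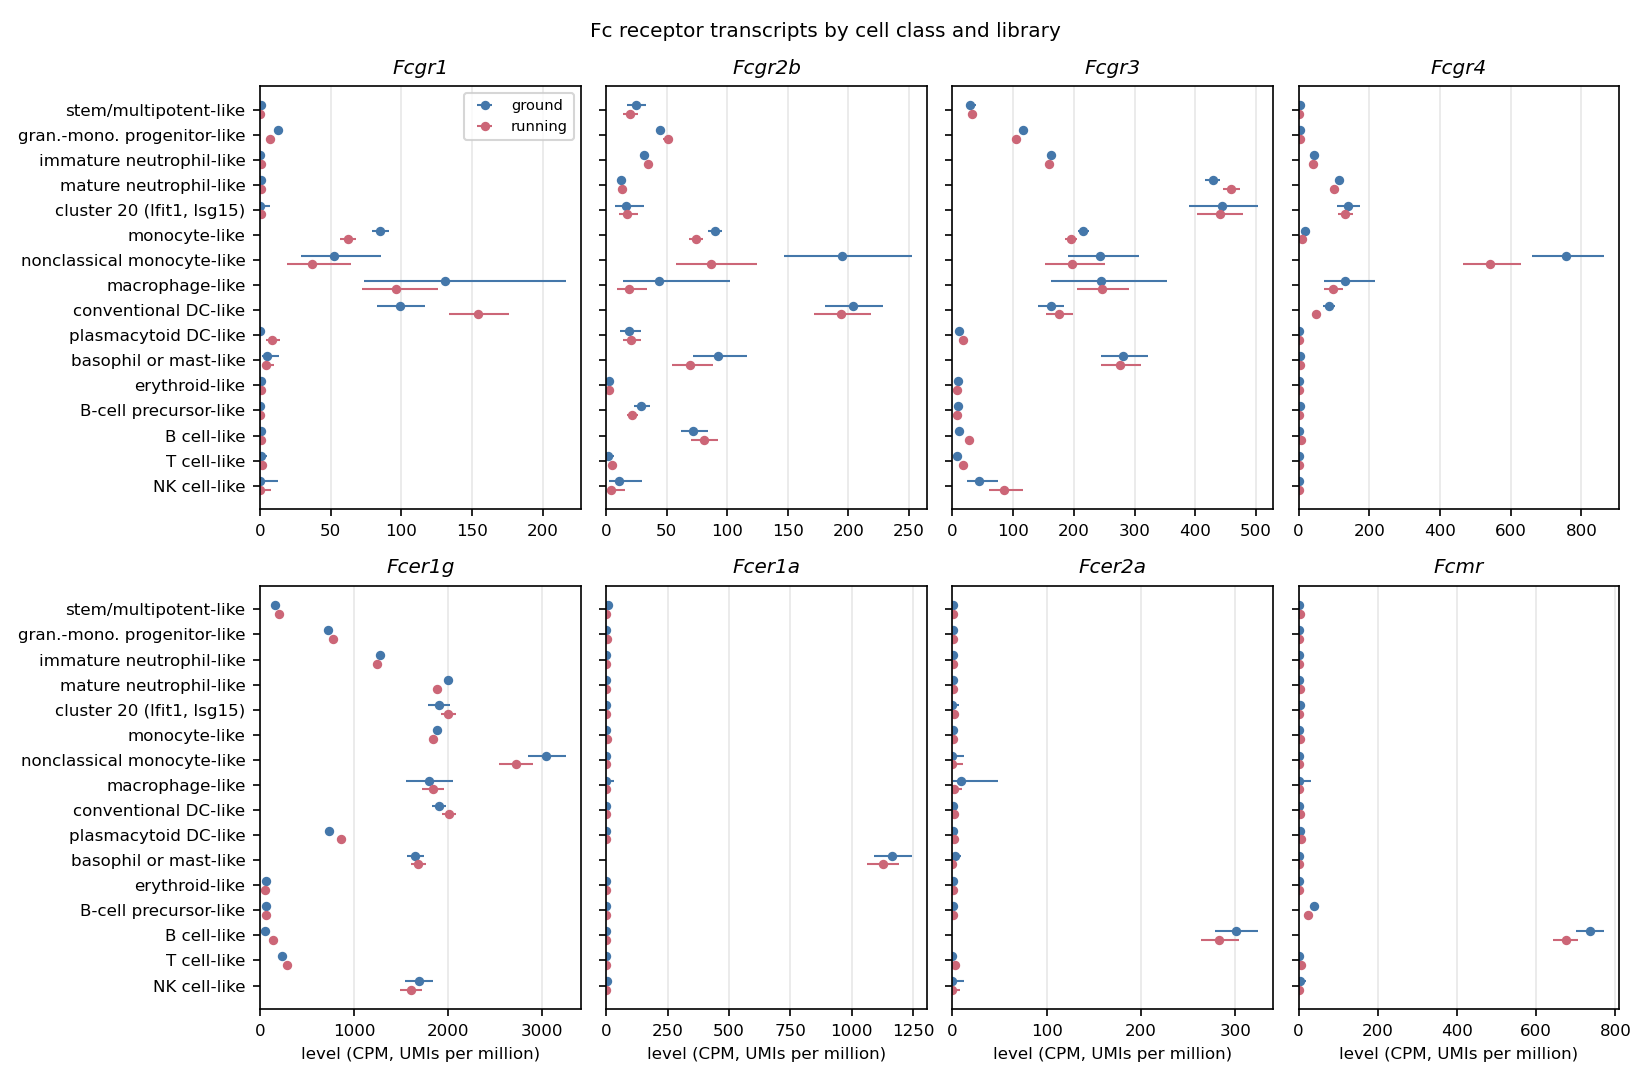
Level of each of the 8 genes (CPM on the horizontal axis, scaled separately per panel) in 16 cell classes, with ground in blue and running in red; points are 1 library each and bars are exact 95% Poisson intervals for counting error. Fcgr4 and Fcer1g are highest in nonclassical monocyte-like cells, Fcgr3 in mature neutrophil-like cells and cluster 20, Fcgr2b in conventional dendritic cell-like cells, and Fcer1a, Fcer2a and Fcmr each stand out in a single class.

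The neutrophil clusters differed in receptors when placed in an order by marker genes. The order within the mature clusters is a ranking by Il1b and was not tested as a sequence of maturation. They were ordered from the Elane-high progenitors (cluster 18) through immature clusters 6, 17, 0 and 16, by their level of Retnlg, to mature clusters 19, 9, 21, 8 and 3, by their level of Il1b. This order was chosen after the values were seen. Fcgr3 stood at 124 and 124 CPM in cluster 18, at 78.0 and 64.9 CPM in cluster 6, at 163 and 152 CPM in cluster 0 and at 284 and 287.5 CPM in cluster 16. It was 418 CPM in cluster 9 of ground and 437.5 CPM in cluster 19 of running. Fcgr3 was therefore lowest in the first immature cluster and highest in the mature clusters, in both libraries.

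Fcgr4 went from 5.80 and 8.36 CPM in cluster 18 to 78.3 and 73.7 CPM in cluster 16 and 186 and 148 CPM in cluster 3, the cluster with the highest Il1b. Fcgr2b went the other way, from 46.0 and 51.7 CPM in cluster 18 to 24.6 and 27.3 CPM in cluster 16 and 6.13 CPM in cluster 8 of ground and 8.21 CPM in cluster 21 of running. In cluster 3 Fcgr2b was 23.9 and 23.1 CPM, above those mature clusters. Fcer1g was 382 and 377 CPM in cluster 18, 1645 and 1596 CPM in cluster 16, and 3234 and 2467 CPM in cluster 3.

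In the monocyte branch, Fcgr1 was 20.96 and 11.5 CPM in cluster 4, 52.3 and 25.6 CPM in cluster 5, the deepest monocyte-like cluster (median 16829 UMIs), and 103 and 83.9 CPM in cluster 11, the largest monocyte-like cluster. It was lower again in nonclassical monocyte-like cells, at 52.1 and 37.0 CPM from 15 and 12 UMIs. Fcgr4 parted from Fcgr1 at this last step: it was 3.87 and 1.62 CPM, 4.63 and 2.36 CPM and 23.8 and 14.8 CPM in clusters 4, 5 and 11, and then 757 and 542 CPM in nonclassical monocyte-like cells. The IgG receptor UMIs of nonclassical monocyte-like cells were thus 60.7% and 62.9% Fcgr4, against 4.57% and 2.99% in monocyte-like cells.

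In the B lineage, Fcmr was 7.47 and 2.99 CPM in cluster 10 (led by Vpreb1, Igll1 and Dntt), 90.1 and 93.1 CPM in cluster 12 (led by Rag1), 791 and 591 CPM in cluster 22 (led by Ms4a1) and 711 and 780 CPM in cluster 2 (led by Ighd, a gene of mature B cells). Fcer2a came later in this order. It had 2 and 0 UMIs in cluster 10 and 0 and 4 UMIs in cluster 12, and stood at 153 and 126 CPM in cluster 22 and 389 and 406 CPM in cluster 2. Fcgr2b was 19.3 and 16.1 CPM in cluster 10 and 73.2 and 87.2 CPM in cluster 2.

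**Figure D2:**
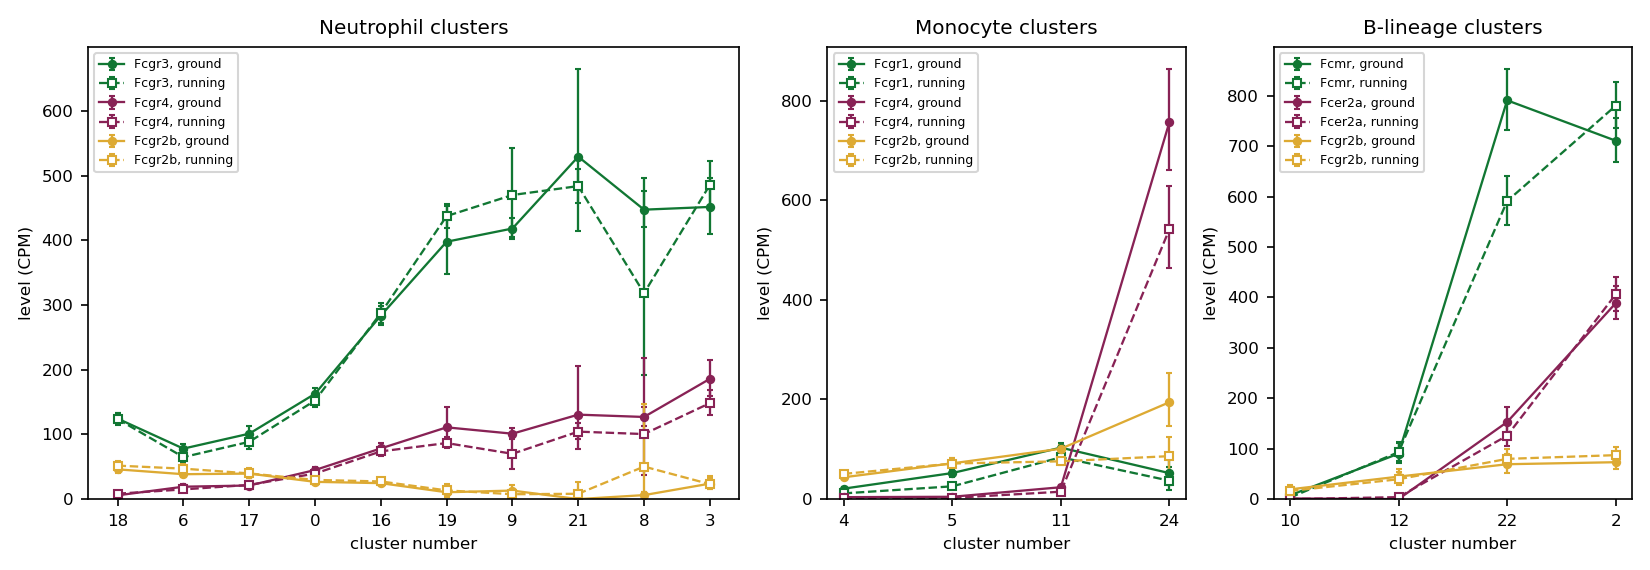
Level (CPM) of 3 genes in each of 3 runs of clusters, placed from left to right in the order given in the text. Mature neutrophil clusters are ranked by Il1b. Filled circles with solid lines are ground, open squares with dashed lines running, bars are exact 95% Poisson intervals. Fcgr3 and Fcgr4 are higher and Fcgr2b lower toward the mature neutrophil clusters, Fcgr4 stands at 757 and 542 CPM in cluster 24 (nonclassical monocyte-like), and Fcmr is high from cluster 22 while Fcer2a is highest in cluster 2. Mature neutrophil clusters with few cells of 1 library (8 in running, 21 in ground) have wide intervals.

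The balance of activating to inhibitory IgG receptors was taken as UMIs of Fcgr1, Fcgr3 and Fcgr4 per UMI of Fcgr2b, which does not depend on scaling to a library total. Mature neutrophil-like cells had 44.4 (37.2 to 53.4) in ground and 41.9 (35.2 to 50.4) in running, and cluster 20 had 35.0 and 33.1 from 9 and 21 UMIs of Fcgr2b. Immature neutrophil-like cells had 6.67 and 5.75, and granulocyte-monocyte progenitor-like cells 2.996 and 2.26. Nonclassical monocyte-like cells had 5.41 and 9, monocyte-like cells 3.55 and 3.61, and conventional dendritic cell-like cells 1.70 and 1.95. Within cluster 2 of the B cell-like class the inhibitory receptor had more UMIs, with 0.104 and 0.0794 activating UMIs per Fcgr2b UMI.

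Between the libraries, the balance was lower in running in granulocyte-monocyte progenitor-like cells, with a log2 change of -0.40 (-0.59 to -0.22), and in immature neutrophil-like cells, at -0.21 (-0.39 to -0.04). The progenitor value was -0.10 when only cells with at least 1000 UMIs were clustered. At that setting the cluster with F13a1 and Nrg1 among its leading genes, as cluster 4 has, was named monocyte-like. The progenitor-like class was then made of other cells. The immature neutrophil value was -0.020 when each cell weighed the same. Within the first immature cluster, cluster 6, the balance was 2.54 in ground and 1.70 in running, a log2 change of -0.58 (-0.93 to -0.22). In the other immature clusters, 17, 0 and 16, the change was -0.14, -0.27 and -0.15, with intervals that held 0. Of the progenitor clusters, cluster 4 was at -0.59 (-0.84 to -0.35) and cluster 18 at -0.16 (-0.44 to 0.12). In nonclassical monocyte-like cells it was higher in running, at 0.73 (0.01 to 1.49), from 56 and 28 UMIs of Fcgr2b. In mature neutrophil-like cells the change was -0.08 (-0.45 to 0.29), an interval that holds 0, and -1.15 when cells were thinned to 1000 UMIs.

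**Figure D3:**
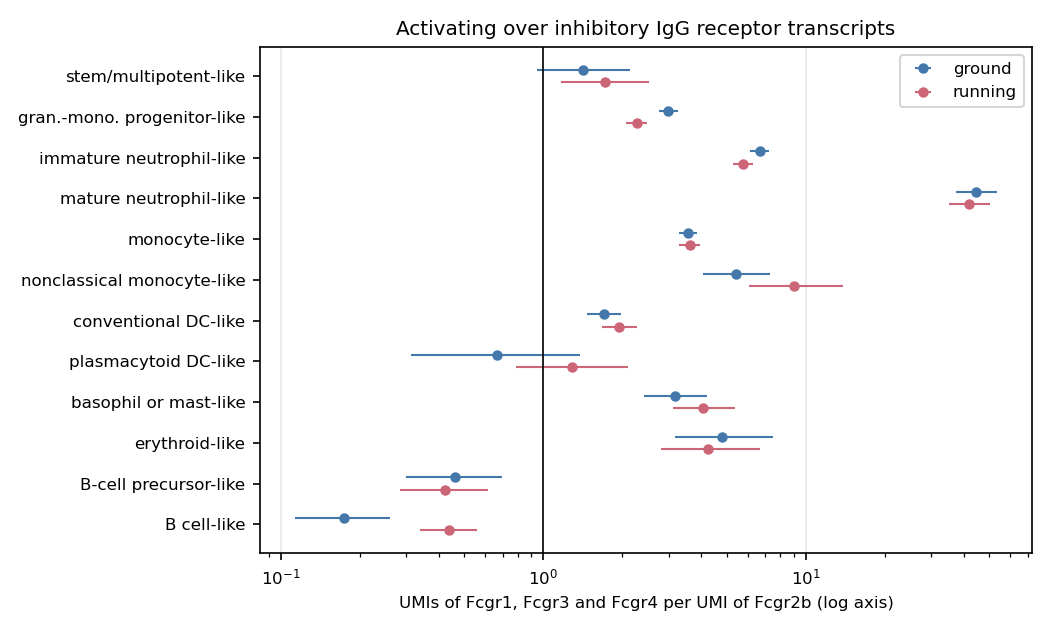
UMIs of Fcgr1, Fcgr3 and Fcgr4 per UMI of Fcgr2b (logarithmic horizontal axis) in 12 classes with enough UMIs, ground in blue and running in red, with exact 95% binomial intervals; the vertical line marks equal numbers. Mature neutrophil-like cells stand at 44.4 and 41.9, and the B-lineage classes lie left of the line. The difference between the B cell-like points rests on cluster 32.

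Over all cells, differences between running and ground were small. In CPM, Fcgr1 was 14.6 in ground and 11.7 in running (log2 ratio -0.32, -0.45 to -0.20), and Fcgr4 was 35.0 and 29.5 (-0.24, -0.32 to -0.16). Fcgr2b was 38.3 and 35.8 CPM (-0.10), Fcgr3 157 and 148 CPM (-0.08), and Fcer1g 1058 and 985.5 CPM (-0.10). Fcer1a was 11.3 and 15.1 CPM (0.42, 0.29 to 0.55), Fcer2a 9.04 and 10.5 CPM (0.21) and Fcmr 23.3 and 26.4 CPM (0.18). The median over all genes with at least 50 UMIs was 0.08. Of the 8 genes, 0 reached a 1.5-fold difference, where 8.4% of 13738 genes did.

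When running was reweighted to the ground shares of cells per class, Fcgr4 stood at -0.42 and Fcer1a at 0.68, the latter past 1.5-fold. UMIs per cell were left as they were, so these values also carry differences in depth within classes and are not levels at equal makeup. Within basophil or mast cell-like cells Fcer1a was 1166 and 1126 CPM, a log2 ratio of -0.05 (-0.18 to 0.08). The class held 142 ground and 112 running cells, but 771027 and 1005652 UMIs.

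By class, 59 pairs of a gene and a class held at least 50 UMIs over both libraries. Of these, 5 (8.47%) were at least 1.5-fold higher in running and 5 (8.47%) at least 1.5-fold lower, against 5.15% and 4.04% of all 103883 pairs of a gene and a class. The median log2 ratio of the 59 was -0.07, and their intervals excluded 0 in 28, with 12 above and 16 below. These intervals narrow as UMIs rise, and the share of all pairs with such intervals was not taken, so this count has no background.

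Fcgr4 was lower in running in 8 of the 8 classes where it was counted. Its interval lay below 0 in 4, for which no share over all genes was taken. The share of all genes at or below 0 in those classes ranged from 30.9% to 55.6%. In monocyte-like cells it had 175 UMIs in ground and 83 in running, 18.7 and 10.2 CPM, a log2 ratio of -0.87 (-1.27 to -0.49), where 3.7% of genes were at least 1.5-fold lower. In the largest monocyte-like cluster, cluster 11, it was -0.68 (-1.11 to -0.27), and the value was -0.77 without the shallow cluster 13. The summed level of nonclassical monocyte markers in monocyte-like cells was 1027 and 943 CPM, with 14 and 13 of 14 detected, and that of 15 immature neutrophil markers, all detected, 7486 and 5320 CPM. Their part in the Fcgr4 difference was not tested.

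In nonclassical monocyte-like cells Fcgr4 was 1.40-fold higher in ground, with a log2 ratio of -0.48 (-0.78 to -0.19), while 14 of 14 nonclassical markers were detected in both libraries at a summed 9158 and 7723 CPM. In conventional dendritic cell-like cells it had 118 and 67 UMIs, 85.2 and 49.1 CPM, a log2 ratio of -0.79 (-1.25 to -0.35), where 6.73% of genes were at least 1.5-fold lower. A single ground cell held 22 of those UMIs, and the ratio without the highest cell of each library was -0.60. In mature neutrophil-like cells it was 116 and 101 CPM (-0.20, -0.32 to -0.08). Within cluster 3, which both libraries fill at the main resolution but not at resolution 2, it was -0.33 (-0.62 to -0.03). The remaining 4 classes had ratios from -0.45 to -0.08 with intervals that held 0.

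Fcgr1 differed in direction between classes. In monocyte-like cells it had 795 UMIs in ground and 505 in running, 85.0 and 62.1 CPM, a log2 ratio of -0.45 (-0.62 to -0.29). Within cluster 5 it was -1.03 (-1.44 to -0.63) from 158 and 76 UMIs, and within cluster 11 -0.30 (-0.48 to -0.12). In granulocyte-monocyte progenitor-like cells it had 207 and 89 UMIs, a log2 ratio of -0.84 (-1.21 to -0.47), where 1.73% of genes were at least 1.5-fold lower. Nearly all of these UMIs came from cluster 4, with 195 and 85. The progenitor value was -1.60 with cells of at least 1000 UMIs, and -2.37 and -1.49 at resolutions 0.5 and 2. In these settings a cluster with F13a1 and Nrg1 among its leading genes, as cluster 4 has, was named monocyte-like. The progenitor-like class was then made of other cells than those behind -0.84. Thinning cells to 1000 UMIs gave 0.40 and left a UMI of Fcgr1 in 0.654% and 0.864% of cells.

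In conventional dendritic cell-like cells Fcgr1 was higher in running, with 137 and 210 UMIs, 98.9 CPM (83.0 to 117) and 154 CPM (134 to 176). The log2 ratio was 0.64 (0.32 to 0.96), where 5.78% of genes were at least 1.5-fold higher. A UMI was found in 48.6% (40.4 to 57.0) of 148 ground cells and 53.9% (45.7 to 61.9) of 154 running cells, so the shares overlapped where the levels did not. In the same class the summed level of 15 monocyte markers was 15139 and 16671 CPM, of 18 macrophage markers 2607 and 3507 CPM, and of 15 immature neutrophil markers 1928 and 7625 CPM. Their part in the Fcgr1 difference was not tested. Across 11 alternative settings the ratio stayed between 0.36 and 0.68, and it was past 1.5-fold in 7 of them.

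Fcgr3 and Fcer1g were nearly level between the libraries in the neutrophil-like and monocyte-like classes. Fcgr3 was 0.10 (0.04 to 0.16) in mature neutrophil-like cells, -0.04 (-0.11 to 0.03) in immature neutrophil-like cells and -0.14 (-0.24 to -0.05) in monocyte-like cells on the log2 scale. Fcer1g was -0.08 (-0.11 to -0.05), -0.05 (-0.07 to -0.02) and -0.03 (-0.06 to 0.00) in the same classes. The median over all genes was 0.08 in mature and 0.10 in immature neutrophil-like cells and 0.14 in cluster 20. In progenitor-like cells Fcgr3 was at -0.16 (-0.27 to -0.06) and Fcer1g at 0.11 (0.07 to 0.15), and in nonclassical monocyte-like cells they were at -0.30 (-0.82 to 0.21) and -0.16 (-0.30 to -0.03). Within cluster 3 Fcer1g was lower in running, 3234 and 2467 CPM, at -0.39 (-0.46 to -0.32). At resolution 2, clusters with Ptgs2, Fgl2 and Il1b among their leading genes, as in cluster 3, were split largely by library.

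The ratios past the fold for these 2 genes lay in lymphoid classes. In B cell-like cells Fcgr3 was at 1.38 (0.70 to 2.11) and Fcer1g at 1.25 (0.96 to 1.55), where 4.39% of genes were at least 1.5-fold higher. Without cluster 32 they were at -0.18 (-1.26 to 0.89) and 0.04 (-0.36 to 0.43), and the same cluster held 57 of the 73 running UMIs of Fcgr3. Over the class, S100a8 was 3892 and 10037 CPM. In NK cell-like cells Fcgr3 was at 0.95 (0.02 to 1.98), 44.1 and 85.2 CPM, where 6.66% of genes were at least 1.5-fold higher. S100a8 in that class was 1630 and 4997 CPM, and its part in the Fcgr3 value was not tested. Fcer1g in NK cell-like cells was 1688 and 1604 CPM, at -0.07 (-0.24 to 0.09).

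Fcgr2b was past the fold in 1 of 12 counted classes. Nonclassical monocyte-like cells had 56 and 28 UMIs, 194 CPM (147 to 253) and 86.2 CPM (57.3 to 125), a log2 ratio of -1.17 (-1.88 to -0.49), where 8.29% of genes were at least 1.5-fold lower. The class had 64 and 61 cells, 1 cluster, and its leading genes included the stress genes Hspa1a and Hspa1b. Its summed levels of 15 immature neutrophil markers were 6140 and 14196 CPM and of 16 conventional dendritic cell markers 1712 and 3698 CPM. These were higher in running, where Fcgr2b was lower, and their part in it was not tested. In monocyte-like cells Fcgr2b was 89.8 and 74.1 CPM (-0.28, -0.43 to -0.12), and its ratio was -0.07 (-0.32 to 0.18) in the conventional dendritic class. It was higher in running in progenitor-like cells, at 0.19 (0.03 to 0.35), and in immature neutrophil-like cells, at 0.16 with an interval that just excluded 0. B cell-like cells stood at 0.16 (-0.14 to 0.46).

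**Figure D4:**
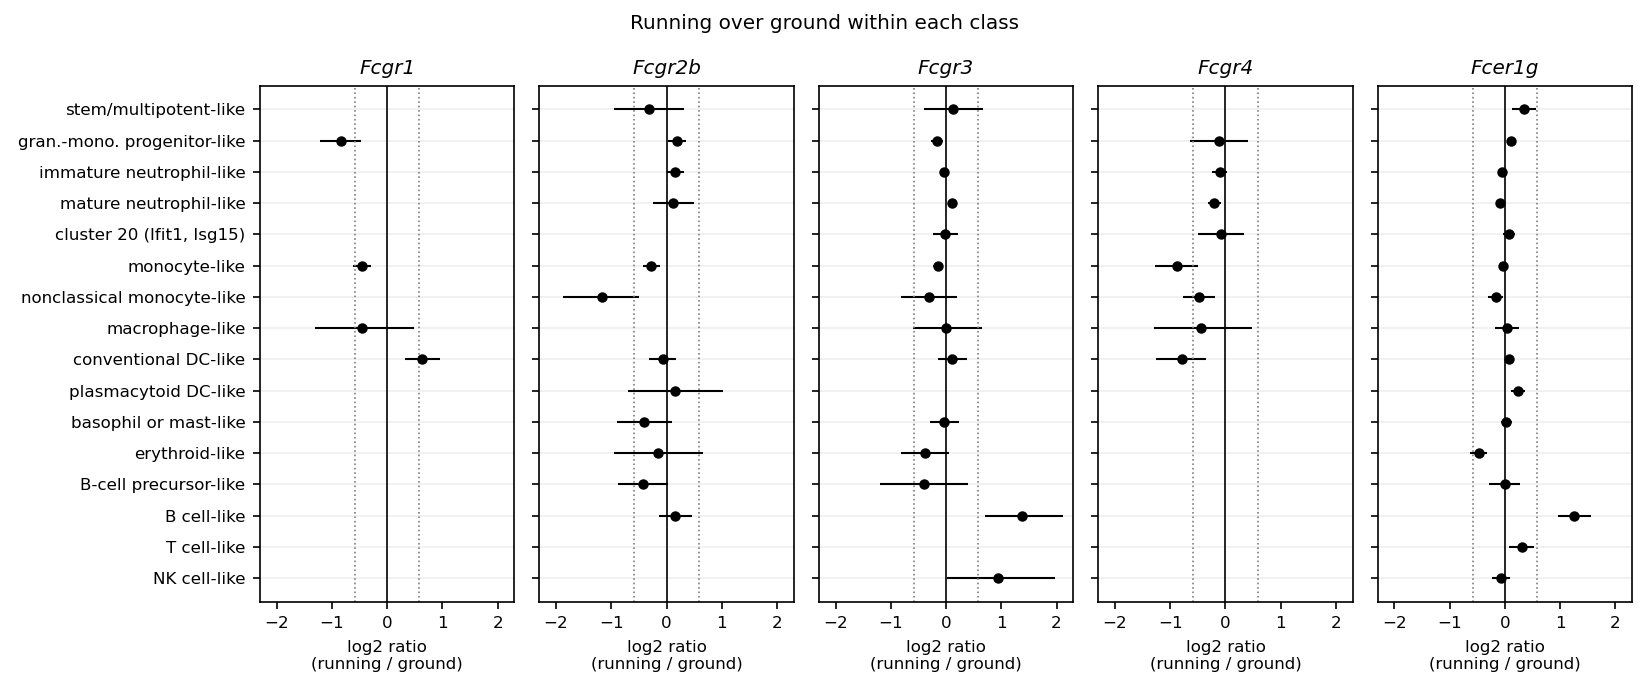
Log2 ratio of CPM, running over ground, for 5 genes in each class with at least 50 UMIs; bars are exact 95% intervals for counting error, the solid line marks equal levels and dotted lines a 1.5-fold difference. All 8 points of Fcgr4 lie below 0, Fcgr1 lies above 0 only in conventional dendritic cell-like cells, and the high B cell-like points of Fcgr3 and Fcer1g rest on cluster 32.

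The intervals of Fcer1a and Fcer2a held 0 within their own classes. Fcer2a in B cell-like cells was -0.09 (-0.24 to 0.06) on the log2 scale. In basophil or mast cell-like cells, Ms4a2, the beta subunit of the high-affinity receptor, was 1039 and 1169 CPM, at 0.17 (0.04 to 0.30), and Fcer1g was 1650 and 1682 CPM, at 0.03 (-0.08 to 0.13). All 3 subunits were read in 52.1% (43.6 to 60.6) of 142 ground cells and 82.1% (73.8 to 88.7) of 112 running cells, with median depths of 3385.5 and 5463 UMIs. Among cells with at least 1000 UMIs these shares were 70.9% (61.1 to 79.4) of 103 and 82.1% of 112, and the intervals overlapped. Thinned to 1000 UMIs, cells with Fcer1a made up 52.4% and 61.6%, also with overlapping intervals. The summed level of immature neutrophil markers in the class was 7188 and 3206 CPM.

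Fcmr in B cell-like cells was 736 and 674 CPM, at -0.13 (-0.22 to -0.03), and at -0.07 (-0.17 to 0.03) without cluster 32. Its clusters differed: it was -0.42 (-0.58 to -0.26) in cluster 22 and 0.13 (0.01 to 0.26) in cluster 2. In B-cell precursor-like cells it was at -0.69 (-1.09 to -0.29), where 5.13% of genes were at least 1.5-fold lower, but at 0.048 (-0.38 to 0.48) within cluster 12, which contained 91 of 103 ground and 97 of 107 running UMIs. Cluster 10, nearly without Fcmr, supplied 145 of the 484 ground cells and 233 of the 566 running cells in the class. In monocyte-like cells Fcmr had 20 and 30 UMIs, with 13 of the 30 in a single cell. Its ratio was 0.79 (-0.08 to 1.68), where 3.49% of genes were at least 1.5-fold higher, and 0.20 without the highest cell of each library.

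Of 25 genes of activating Fc receptor signalling, 22 were counted in the monocyte-like class, 11 above 0 and 11 below. Of all genes there, 51.5% lay above 0. The median of the 22 was -0.0021 against 0.0079 over all genes. Malt1, an adaptor of NF-kappaB activation, was at 0.39 (0.26 to 0.52) and Card9, its partner in myeloid cells, at -0.46 (-0.76 to -0.15). In mature neutrophil-like cells 10 of 21 lay above 0, where 62.2% of all genes did, with a median of -0.04 against 0.08 over all genes. Btk, a Tec-family kinase, was at 0.40 (0.22 to 0.57) and Plcg2, a phospholipase of calcium signalling, at 0.36 (0.22 to 0.50). None of the counted genes of the list was past 1.5-fold in either class, where 7.19% (monocyte-like) and 13.3% (mature neutrophil-like) of all genes were.

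The same list had 10 of 20 counted genes above 0 in conventional dendritic cell-like cells, where 44.4% of all genes were. Its median was -0.01 against -0.05 over all genes. Fyn, a Src-family kinase, had 87 UMIs in ground and 22 in running and was at -1.96 (-2.71 to -1.27), and Malt1 was at 0.60 (0.26 to 0.95). These were the 2 genes past the fold, 1 in each direction, where 6.73% of all genes in the class were at least 1.5-fold lower and 5.78% higher. In basophil or mast cell-like cells 11 of 17 lay above 0, where 48.7% of all genes did, with a median of 0.13 against -0.01. None of the 17 was past the fold, for which no share over all genes is given. Lat2, an adaptor of the IgE receptor, was there at 0.28 (0.01 to 0.56) and Syk at -0.42 (-0.91 to 0.06).

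Of 12 genes of inhibitory signalling, 7 lay below 0 and 5 above in the monocyte-like class (median -0.02). Of all genes there, 51.5% lay above 0, with a median of 0.0079. Siglece, an inhibitory lectin, had 230 and 98 UMIs and was at -1.03 (-1.38 to -0.68), the 1 gene of the list past the fold there. Pirb, an inhibitory receptor for MHC class I, was at -0.56 (-0.64 to -0.48) and Lilrb4a, another inhibitory receptor of the same family, at 0.36 (0.29 to 0.44). In mature neutrophil-like cells 6 of 11 lay above 0, with a median of 0.24, where 62.2% of all genes lay above 0, with a median of 0.08. Cd300a, an inhibitory lipid receptor, was at 0.39 (0.29 to 0.50), Pirb at -0.36 (-0.42 to -0.30), and Dok1, an adaptor that restrains kinase signalling, at 0.67 (0.24 to 1.097) from 79 and 116 UMIs, the 1 gene of the list past the fold there.

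Of other receptors that signal through the Fc gamma chain, 1 of 5 counted lay above 0 in mature neutrophil-like cells, with a median of -0.24, where 62.2% of all genes lay above 0. Clec4e, a receptor for mycobacterial glycolipid, was 588 and 423 CPM, at -0.48 (-0.53 to -0.42), and Cd300lf, a receptor for lipids, was at -0.39 (-0.46 to -0.32). Pira2, an activating relative of Pirb, was at 0.33 (0.24 to 0.41). In the monocyte-like class 1 of 5 lay above 0 (median -0.25), where 51.5% of all genes did, and Cd300lf was at -0.72 (-0.97 to -0.48). Elsewhere the same list had 4 of 4 above 0 in B cell-like and 3 of 3 in macrophage-like cells, and 0 of 4 in erythroid-like cells. Of all genes, 42.0%, 45.0% and 56.1% lay above 0 in these classes. Summed mature neutrophil markers were 1307 and 3606, 7663 and 11459, and 971 and 630 CPM in the same order. Their part, and that of cluster 32 in the B cell-like class, was not tested. Among other Fc receptors and adaptors, 3 of 4 lay above 0 in mature neutrophil-like cells, with a median of 0.15. Hcst and Tyrobp, signalling adaptors of other activating receptors, were there at 0.44 (0.37 to 0.50) and 0.16 (0.14 to 0.17). In the monocyte-like class 5 of 6 lay above 0 (median 0.09).

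The pattern of each gene over the 16 classes was compared with that of 10188 others by Pearson's r of log2(CPM + 10), as a description over classes that share their libraries. Nearest to Fcgr1 were Shtn1, Abca9 and Tmem106a (r = 0.98 each). Fcgr3 was nearest to Neat1 (0.97), Lilrb4a (0.95) and Fosl2 (0.95), and Fcgr4 to Cdc42ep2 (0.97), Slc11a1 (0.94) and Nadk (0.93). Fcgr2b had the loosest neighbours, BC028528 (0.94), Napsa (0.88) and Sdccag8 (0.83). Fcer1g was nearest to Tyrobp (0.94), Myo1f (0.93) and Rnf130 (0.92).

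Fcer1a was nearest to Cyp11a1 (0.998), Cd200r3 (0.996) and Prss34 (0.996), all markers used to name the basophil or mast cell class. Fcer2a was nearest to Trim7 (0.98), Cr2 (0.98) and Il4i1 (0.98), and Fcmr to Ms4a1 (0.98), Rasgrp3 (0.98) and Ighd (0.98). Among the 8 genes themselves, Fcgr3 with Fcer1g had 0.87, Fcgr3 with Fcgr4 0.72, and Fcgr1 with Fcgr3 0.42.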

How the data were processed

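Raw UMI counts per gene and cell were deposited by the authors. Per the file headers the matrices come from Cell Ranger 5.0.0, and the submitters' processing notes list STAR and mm10. The lowest barcode totals were 501 and 500 UMIs. Kept cells had at least 500 UMIs, at least 250 genes and at most 10% mitochondrial UMIs. Filters removed 253 ground and 293 running barcodes, and Scrublet in scanpy 1.11.5 removed 243 (2.73%) and 100 (1.09%) as doublets, at score thresholds of 0.242 and 0.322. Counts were scaled to 10000, 2000 variable genes without the 8 members gave 30 principal components, and cells were clustered with 15 neighbours (Leiden, igraph 0.11.9, resolution 1, no integration).

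Clusters were named after the type whose markers were most frequent among their 10 leading genes, with at least 3 markers detected. Clusters 1 and 13, with medians of 888 and 876 UMIs, kept names because markers led them. Summed counts were scaled to CPM in Python 3.11.15 with exact intervals from scipy 1.17.1. The code for the ratio intervals was checked on simulated independent Poisson counts. Such counts hold no uneven spread of UMIs over cells, so the check does not cover it. All 8 members were named where a class held 50 of their UMIs, 2 to 4 genes per list by size of ratio with at least 100 UMIs, and the 3 most alike genes. Other genes named are markers or leading genes of a cluster. The members and lists were chosen with earlier results of these data known. The result of 1 further gene of these lists is not reported here.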

Additional observations from a re-analysis of the deposited data

Results flagged for a closer look

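Fcgr1 went in opposite directions in classes of related cells. The log2 ratio of running over ground was 0.64 in conventional dendritic cell-like cells, from 137 and 210 UMIs, and -0.84 in granulocyte-monocyte progenitor-like cells, from 207 and 89 UMIs. Of the latter, 195 and 85 lay in cluster 4, which was led in part by the monocyte gene F13a1. The progenitor value was 0.40 when cells were thinned to 1000 UMIs, but too few cells then kept a UMI of Fcgr1 to fix a direction. These values stand out because the single pair of libraries moved one way in 1 class and the other way in another. The difference between the classes was not tested, since each group had 1 library.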

How the results depend on the processing

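The count of 5 pairs at least 1.5-fold higher in running was 3 with cells of at least 1000 UMIs, 2 with doublets kept, 1 at resolution 0.5 (46 pairs counted), 3 at resolution 2, 10 with at least 20 UMIs per gene, 2 with at least 200, and 3 without cluster 32, a setting added after seeing the data. The count of 5 lower pairs was 12 after thinning to 1000 UMIs (55 pairs) and 3 with at least 200 UMIs per gene. The number of pairs counted changes with the minimum of UMIs per gene. The share of all pairs past the fold was not taken at these settings, so the counts have no background. Over all cells, 1 of the 8 genes (Fcer1a) passed the fold with the class proportions of ground, and 0 under the other settings run. Those proportions are of cells and leave UMIs per cell as they were. The log2 change of the activating to inhibitory balance went from -0.40 in progenitor-like cells to -0.10 (at least 1000 UMIs), -0.11 (doublets kept), -0.15 (resolution 0.5) and -0.13 (resolution 2). In monocyte-like cells it went from 0.02 to -0.18, -0.18 and -0.17 with at least 1000 UMIs, with doublets kept and at resolution 2. In all of these settings a cluster with F13a1 and Nrg1 among its leading genes was named monocyte-like. In the main setting such a cluster, cluster 4, was named progenitor-like, so both classes were made of other cells. With each cell weighted equally the change of the balance was -0.020 in immature neutrophil-like cells. After thinning it was -1.15 in mature neutrophil-like and 0.59 in conventional dendritic cell-like cells. The sign was reversed for Fcgr3 in B cell-like cells (-0.39 with doublets kept, -0.52 at resolution 0.5, -0.18 without cluster 32) and Fcer1g there (-0.55, -0.22 at these first settings, -0.25 within cluster 2). It was also reversed for Fcmr in monocyte-like cells (-0.43 with cells weighted equally, -1.22 thinned), Fcgr1 in progenitor-like cells (0.40 thinned) and Fcmr in B-cell precursor-like cells (0.048 within cluster 12). The thinned value of Fcgr1 rests on too few cells with a UMI to fix a direction. Causes were not tested. Class membership changed in the settings named above. The settings without cluster 32 or within 1 cluster, and those on minimum UMIs, count fewer cells or genes. Fcgr4 in monocyte-like cells kept its direction in 13 of 13 alternatives (-1.23 to -0.51), Fcgr4 in conventional dendritic cell-like cells in 10 of 10 (-2.15 to -0.60), Fcgr2b in nonclassical monocyte-like cells in 11 of 11 (-1.74 to -0.76) and Fcgr1 in conventional dendritic cell-like cells in 11 of 11 (0.36 to 0.68), the last past 1.5-fold in 7. No paired analysis was possible because each group had 1 library. Depth limits the small classes: 3 UMIs, the number a count of 0 allows, equal 26.2 CPM in ground macrophage-like and 10.2 CPM in ground NK cell-like cells.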

Other observations

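The list of immunoglobulin genes held heavy chains of IgG, IgE and IgM, the antibodies that the receptors taken here bind, and also Igha, Ighd and Jchain. For several genes of the list most UMIs lay in few cells. Over all cells, Ighg1 had 6318 UMIs in ground and 14 in running, and a single ground cell held 5582 of them. Ighg2c had 106 UMIs in ground and 17365 in running, with more than 100 UMIs in 0 of 28 ground and 5 of 24 running plasma cell-like cells. Ighg3 had 25 and 1879 UMIs, 1806 of them in 1 running cell, and Ighe had 118 and 1 UMIs, 113 of them in 1 ground cell. Igha had 91861 and 41066 UMIs, with more than 100 UMIs in 25 of 28 and 13 of 24 plasma cell-like cells. Of the 9 genes in the list, 5 lay above 0 on the log2 scale over all cells, as did 69.8% of all genes.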
